A study of Mus musculus with 60 samples.

Results

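The 100 cDNA clones described here had higher values late after trichostatin A (TSA) than late after either of 2 other inducers of erythroid maturation, hexamethylene bisacetamide (HMBA) and dimethyl sulfoxide (DMSO). They were chosen by measured values: the deposited ratios at 24 and 36 h, on a log2 scale. A clone needed at least 3 values in each of 15 conditions and a log2 ratio below 0.3 at 36 h with HMBA and with DMSO. Clones were then ranked by a score, the smaller TSA value of 24 and 36 h minus the largest of the 4 HMBA and DMSO values at those times, and the top 100 were taken. The deposited table held 22656 clones, of which 14535 had enough values and 11470 of these also lay below the ceiling. Every member value at 24 and 36 h is therefore a description here, and the members were tested only at 1, 6 and 12 h. A limma contrast at 24 and 36 h was also run over all clones, and its count of members is a description.

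Mouse erythroleukemia cells are virus-transformed precursors of red blood cells that stop dividing and begin to make hemoglobin when given a chemical inducer. TSA blocks histone deacetylases, enzymes that remove acetyl groups from histone tails, and its presence is known to raise histone acetylation and to change the transcription of many genes in either direction. DMSO and HMBA are classical polar inducers of the same maturation, and neither is known mainly as a deacetylase inhibitor.

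The cells were the highly inducible line T-3-Cl-2-0.fl, grown in RPMI1640 medium with fetal calf serum. Cultures received 30 nM TSA, 5 mM HMBA or 1.5% DMSO for 1, 6, 12, 24 or 36 h, and RNA after treatment was hybridised together with RNA of the same line before treatment. Each of the 15 conditions had 4 technical arrays of 1 RNA pair. Cy5 marked the after-treatment RNA on replicates 1 and 2, and the dyes were swapped on replicates 3 and 4. The labels name no untreated culture at matched times, and they do not say whether all conditions were set against the same before-treatment extract. In 1 label field the DMSO dose has lost its decimal point, and the titles give it as 1.5%. The groups had no genetic difference in their labels, and a single line was used, so the spread between lines or between repeated cultures was not measured. A value below is the log2 ratio of after over before treatment, the mean of both dye orientations, normalized from the spot intensities.

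The files name clones by plate, row and well, and neither they nor the reference gene table pairs a clone with a gene. The labelled cell type could for that reason not be checked against red cell or other blood cell markers, no gene role can be given, and no clone sequence is printed. It is also unknown how many of the 100 clones carry the same transcript. 4 clones are named by identifier. H3114F12 and H3118A03 had the highest scores, while H3057B07 and H4072B01 were chosen after their values were seen.

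The arrays listed 16550 to 21087 clones each, with a median before-treatment intensity over all listed clones of 299 to 1050, and 14582 clones, all 100 members among them, had values on 3 or 4 arrays in every condition and were tested. Of the members, 59 were listed on all 60 arrays. At HMBA 1 h the arrays of replicates 3 and 4 correlated across clones at r = -0.33 although their labels give the same dyes. Below 0 on 4 of 4 arrays were 3.87% of all clones as labelled, 14.4% with the sign of replicate 3 turned and 4.33% with that of replicate 4 turned. At 1 h this share was 9.66% with TSA and 8.35% with DMSO. The 4 HMBA arrays thus shared this sign most often with replicate 3 turned, but which array runs the way its label says was not tested. Member medians and counts at HMBA 1 h, and members called with HMBA, are also given with the sign of either array turned. Other values that hold HMBA 1 h are as labelled unless stated. Each array was made of 2 slides, and 15 members lay on another slide number on the DMSO arrays than on the TSA arrays, against 0 between TSA and HMBA, so that slide layout and DMSO cannot be told apart.

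In the median the members lay above the before-treatment level late after TSA and below that level late after HMBA and DMSO. Their median log2 ratio with TSA was 1.05 at 24 h and 1.08 at 36 h, a median 2.07-fold and 2.11-fold. With HMBA the medians at 24 and 36 h were -0.56 and -0.37, and with DMSO they were -0.80 and -0.59. Since total RNA of whole cultures was measured, fewer cells of a kind and less RNA per cell cannot be told apart.

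The 4 TSA arrays at 24 h had member medians of 1.04, 1.11, 1.07 and 1.05, against -0.62, -0.65, -0.47 and -0.48 on the HMBA arrays and -0.84, -0.86, -0.88 and -0.78 on the DMSO arrays. At 36 h the TSA arrays had medians of 1.06, 1.01, 0.98 and 0.96, against -0.28, -0.39, -0.47 and -0.18 with HMBA and -0.65, -0.65, -0.66 and -0.72 with DMSO. All 8 late TSA arrays lay above all 16 late arrays of the other inducers, which the choice of members fixes. Above 0 on 4 of 4 TSA arrays were 72 members at 24 h, where 11.5% of all clones tested were, and 84 at 36 h, where 12.9% were. A log2 ratio of 1 or more with TSA was reached by 52 members at 24 h (1.44% of all clones) and 55 at 36 h (1.85%). In the limma contrast of TSA minus the mean of DMSO and HMBA at 24 and 36 h, 94 members passed an adjusted p of 0.05 in the higher direction, beside 2.16% of all clones, and nothing is read from this count because the same values chose the members.

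**Figure D1:**
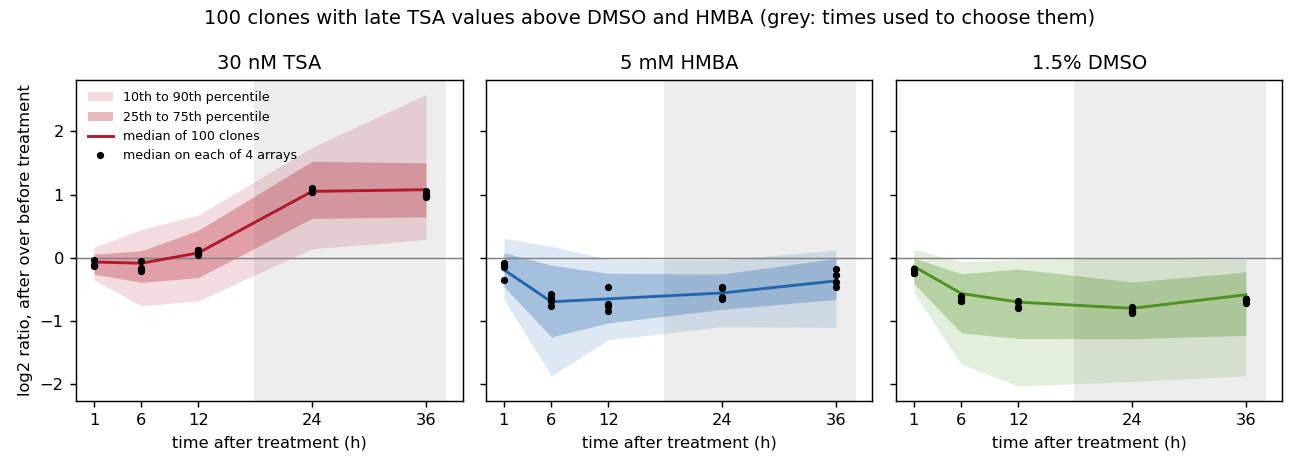
Median log2 ratio (after over before treatment) of the 100 clones against time in hours with TSA, HMBA and DMSO, with bands for the middle 50% and 80% of clones and a point for the median on each of 4 arrays. The TSA median lies near 0 through 12 h and at 1.05 and 1.08 at 24 and 36 h, while the HMBA and DMSO medians lie below 0 at every time with the arrays as labelled.

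The edge of the group was gradual. The clone at rank 100 had a score of 0.63, with deposited log2 ratios of 0.85 and 1.22 at 24 and 36 h with TSA, 0.22 and -0.02 with HMBA, and 0.11 and 0.20 with DMSO. The clone at rank 101 had a score of 0.62, with 0.89 and 0.80 with TSA, 0.10 and 0.17 with HMBA, and -0.08 and -0.06 with DMSO. The highest score was 2.74.

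A late rise above the before-treatment level did not describe every member. The smaller of the 24 and 36 h TSA values was 1 or more in 44 members, between 0.3 and 1 in 39, and below 0.3 in 17, of which 7 were below 0. In these 17 clones the TSA medians were 0.10 and 0.19 at 24 and 36 h, against -0.96 and -0.95 with HMBA and -1.21 and -1.03 with DMSO. They entered the group by low HMBA and DMSO values rather than by high TSA values. In the 44 clones with the higher TSA values the medians at 24 and 36 h were 1.57 and 1.50 with TSA, -0.51 and 0.00 with HMBA, and -0.88 and -0.62 with DMSO. In the 39 clones between them the medians were 0.76 and 0.80 with TSA, -0.46 and -0.45 with HMBA, and -0.45 and -0.38 with DMSO.

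**Figure D2:**
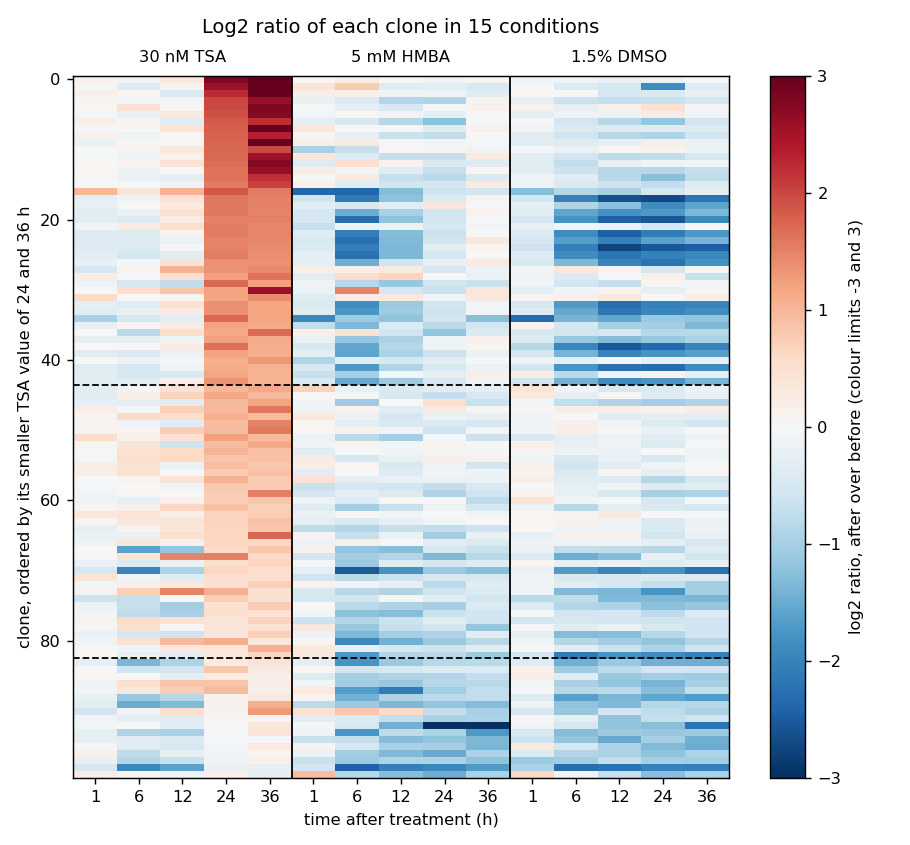
Log2 ratio (after over before treatment) of each of the 100 clones, 1 per row, at 5 times in hours with TSA, HMBA and DMSO, ordered by the smaller late TSA value, with colours cut at -3 and 3 and dashed lines between the groups of 44, 39 and 17 clones. The late TSA columns fade down the page while the HMBA and DMSO columns are below 0 for most clones.

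H3114F12, the clone with the highest score, was close to its before-treatment level with TSA until 12 h and then far above it. On the 4 TSA arrays at 36 h it had log2 ratios of 3.17, 2.85, 3.83 and 3.95, against -0.34, 0.12, -1.66 and 0.08 with HMBA and -0.02, 0.41, -1.02 and -0.93 with DMSO. All 4 TSA arrays were above every HMBA and DMSO array of that time, which the choice by score favours. Its TSA mean was 3.45 ± 0.53 (SD, n = 4 arrays), which is 10.9-fold, and at 24 h it was 2.59 ± 0.24, which is 6.02-fold. At 1, 6 and 12 h the TSA means were 0.04, -0.38 and 0.08, and at 12 h the 4 arrays ran from -0.53 to 0.93, on both sides of 0. With HMBA the means at these times were 0.42, 0.78 and -0.37. Over 1 to 12 h the limma difference of TSA minus HMBA was -0.36 (95% interval -0.96 to 0.24). That of TSA minus DMSO was 0.24 (-0.35 to 0.84), and neither passed. The lowest value of H3114F12 was with DMSO at 24 h, -1.85, where the 4 arrays ran from -3.30 to -0.40.

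H3118A03, second by score, followed a similar course with TSA and lay near 0 with the other inducers. At 36 h its TSA arrays gave 3.13, 2.76, 4.00 and 3.86, against 0.29, 0.21, -0.47 and 0.25 with HMBA and -0.04, 0.18, -0.10 and -0.11 with DMSO. The TSA values lay above all those of the other inducers, which the choice by score favours. The TSA mean at 36 h was 3.44 ± 0.59 (SD, n = 4 arrays), which is 10.8-fold, and at 24 h it was 2.77 ± 0.93, with arrays at 3.29, 2.39, 3.75 and 1.67. At 36 h its after-treatment spots had intensities of 9866 to 27746 and its before-treatment spots 984 to 2014. Over 1 to 12 h the limma difference of TSA minus HMBA was 0.04 (95% interval -0.31 to 0.40) and of TSA minus DMSO 0.26 (-0.09 to 0.62), and neither passed.

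**Figure D3:**
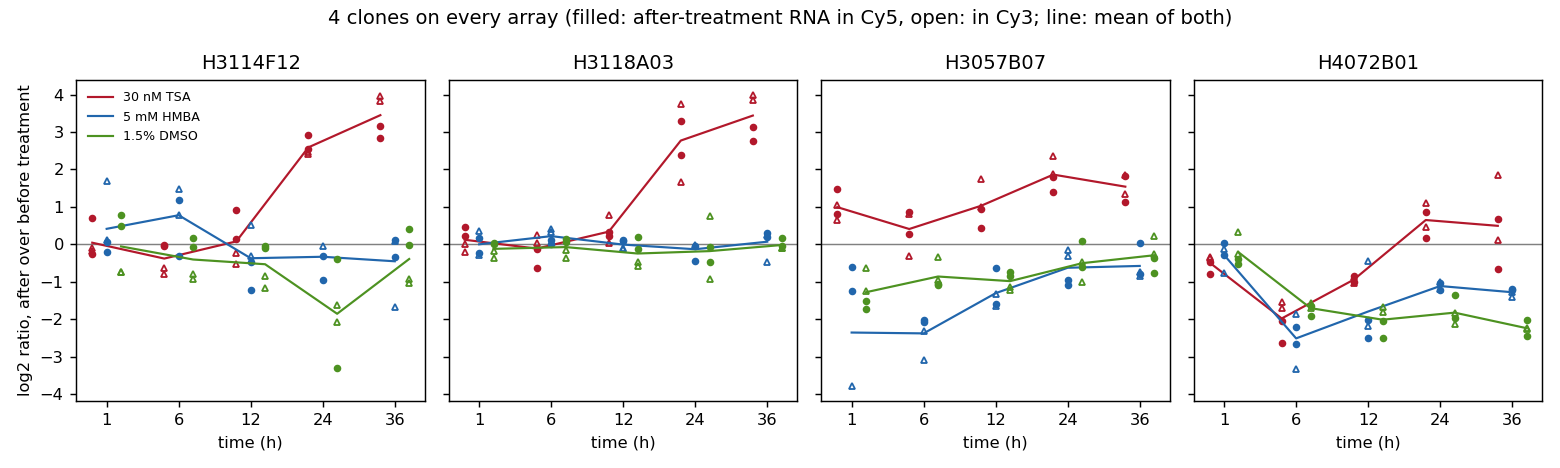
Log2 ratio (after over before treatment) of 4 clones against time in hours on every array with TSA, HMBA and DMSO, with filled points for after-treatment RNA in Cy5, open triangles for Cy3 and lines for the mean of both. H3114F12 and H3118A03 reach 3.45 and 3.44 at 36 h with TSA, H3057B07 is above 0 with TSA and below 0 with HMBA from the first hour, and H4072B01 is lowest at 6 h with TSA, at -1.98.

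With TSA most of the difference appeared between 12 and 24 h. A log2 ratio of 1 was first reached at 12 h by 4 members (1.01% of all clones were at 1 or more then), at 24 h by 48 and at 36 h by 11, and 37 never reached it. The 24 h value was at least 1 above the 12 h value in 48 members, beside 1.41% of all clones tested. The rule used the values at 24 and 36 h and not that at 12 h. A step up from 12 to 24 h is therefore in part a consequence of the choice of members. From 24 to 36 h the members went both ways, with 55 higher at 36 h than at 24 h, 23 of them by 0.5 or more, and 9 lower by 0.5 or more. At 36 h 16 members had a log2 ratio of 2 or more, against 3 at 24 h, and the highest member reached 14.0-fold. For these counts, and those of the steps from 24 to 36 h, no share over all clones was computed, so they describe the members only.

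At the early times, which the choice of members did not use, the TSA values lay on both sides of 0. The member medians with TSA were -0.07, -0.09 and 0.07 at 1, 6 and 12 h. At 1 h 4 members were above 0 on all 4 arrays (10.4% of all clones) and 30 were below 0 on all 4 (9.66%). At 6 h these counts were 14 (15.6%) and 32 (16%), and at 12 h they were 33 (14.6%) and 24 (17.1%).

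Some members were below their before-treatment level with TSA at the early times. A TSA value of -1 or less was found in 6 members at 6 h (1.05% of all clones) and in 4 at 12 h (1.17%). Averaged over 1 to 12 h and tested against the before-treatment level with limma, 13 members were lower with TSA at an adjusted p below 0.05 (5.73% of all clones were), with a median of -0.71 among these, and 1 member was higher (7.18% of all clones). The 13 lower members held 2 of the 44 clones with the higher late TSA values, 4 of the 39 and 7 of the 17. Without replicate 3, which left 78 members to test, 5 members passed and all were lower, where 382 of 12686 clones passed (1.28% of them lower, 1.73% higher), against 1883 of 14582 with all replicates.

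H4072B01 had the lowest TSA value at 6 h. Its TSA arrays at 6 h gave -2.05, -2.63, -1.69 and -1.54, against -2.66, -2.20, -1.86 and -3.31 with HMBA and -1.92, -1.63, -1.56 and -1.69 with DMSO. All 12 arrays were below -1.5, and the ranges of the 3 inducers overlapped. At 24 h the clone was at 0.65 ± 0.42 with TSA, against -1.11 ± 0.10 with HMBA and -1.82 ± 0.33 with DMSO (SD, n = 4 arrays each). The TSA arrays of that time did not overlap with the others, which the choice of members favours. At 36 h its TSA arrays were spread from -0.66 to 1.85, with a mean of 0.50. Over 1 to 12 h it was lower than before treatment with each inducer in the limma test, at -1.14 with TSA (adjusted p = 0.013), -1.53 with HMBA (adjusted p = 0.00494) and -1.31 with DMSO (adjusted p = 0.0219). With the sign of HMBA 1 h replicate 3 or 4 turned, or without the HMBA 1 h condition, its HMBA value was -1.40, -1.51 or -1.71 and passed each time, with limma adjusted p-values of 0.0163, 0.00828 and 0.0118.

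With HMBA and DMSO most members were below the before-treatment level from 6 h on. The HMBA medians were -0.19, -0.70 and -0.65 at 1, 6 and 12 h, and the DMSO medians were -0.14, -0.57 and -0.70. The HMBA median at 1 h was -0.07 with the sign of replicate 3 turned and 0.02 with that of replicate 4 turned. In the limma test over 1 to 12 h against the before-treatment level, 48 members were lower with HMBA (6.75% of all clones) and 0 were higher (7.93%). With DMSO 36 members were lower (1.53% of all clones) and 0 were higher (0.898%). The members that passed had a median of -0.85 with HMBA and -1.12 with DMSO. Among all 100 members, 44 lay above 0 over these times with TSA (46.7% of all clones did), against 14 with HMBA (48.8%) and 10 with DMSO (50.3%).

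These counts depended on single arrays. Without replicate 3, with 78 members left to test, 25 were lower with HMBA, where 954 of 12686 clones passed (3.48% of them lower), and 1 was lower with DMSO, where 2 clones passed. With all replicates 2140 clones had passed with HMBA and 354 with DMSO. With the sign of HMBA 1 h replicate 3 turned, 29 members were lower with HMBA and 1270 clones passed (3.67% lower). With that of replicate 4 turned, 40 were lower and 1 higher among 2119 clones (6.12% lower, 8.41% higher), and without the HMBA 1 h condition 35 were lower and 1 higher among 1503 clones (4.73% lower, 5.58% higher). With 6 and 12 h alone, 57 were lower with HMBA (8.17% of all clones) and 2 higher (9.83%), 49 were lower with DMSO (2.37%), and with TSA 10 were higher (8.93%) and 14 lower (7.19%). The early ratios may share their before-treatment RNA with the late ratios that chose the members, and its part in the counts against the before-treatment level was not tested.

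By condition, members below 0 on 4 of 4 arrays numbered 8 (3.87% of all clones), 63 (15.7%), 53 (11.3%), 51 (12.3%) and 34 (10.6%) at 1, 6, 12, 24 and 36 h with HMBA. With DMSO they numbered 33 (8.35%), 64 (14.6%), 66 (13.6%), 60 (11.3%) and 63 (13.3%). The HMBA count was highest at 6 h, and the DMSO counts were 60 or more from 6 h on. At HMBA 1 h the count was 14 with the sign of replicate 3 turned (14.4% of all clones) and 5 with that of replicate 4 turned (4.33%). A log2 ratio of -1 or less with HMBA was found in 2 (0.919%), 39 (1.94%), 27 (1.34%), 14 (0.658%) and 11 members (1.1%) at the 5 times, and with DMSO in 3 (0.0823%), 30 (0.816%), 34 (0.741%), 40 (0.994%) and 33 (0.514%). The late counts of both inducers are a consequence of the choice of members, and those at 1 to 12 h are not values the rule used. With the sign of either array turned, 4 members were at -1 or less at HMBA 1 h, where 2.09% of all clones were with replicate 3 turned and 0.679% with replicate 4 turned.

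Early values of -1 or less with HMBA and with DMSO occurred in all 3 groups of clones set apart by their late TSA values, in counts that were not compared by a test. At 6 h a value of -1 or less with HMBA was found in 18 of the 44 clones with the higher late TSA values, 11 of the 39 and 10 of the 17. With DMSO these counts were 16, 5 and 9, and with TSA they were 0, 2 and 4. In the 44 clones the HMBA median was -0.47 at 6 h, -0.62 at 12 h and, in values the rule used, -0.51 at 24 h and 0.00 at 36 h. With HMBA 12, 2 and 1 of them were at -1 or less at 12, 24 and 36 h, and with DMSO 17, 21 and 17 were. The lowest member value with DMSO at 12 h was -2.78, in this group of 44.

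The median differences between TSA and the other inducers were smaller at 1 h than at 6 h and later. The median of TSA minus HMBA over the members was 0.04, 0.45, 0.65, 1.58 and 1.42 at 1, 6, 12, 24 and 36 h, and that of TSA minus DMSO was 0.12, 0.46, 0.70, 1.67 and 1.83. TSA minus HMBA was above 0 in 56, 80 and 89 members at 1, 6 and 12 h, where 50%, 52.5% and 49.5% of all clones were. At 1 h its median was -0.06 with the sign of HMBA replicate 3 turned, with 46 members above 0 (49% of all clones). It was -0.10 with that of replicate 4 turned, with 36 above 0 (50.5%), so its direction at 1 h depends on these arrays. TSA minus DMSO was above 0 in 72, 84 and 88 members, where 50.9%, 48% and 47.7% of all clones were. Both differences use the same TSA arrays, so they are not separate evidence. A before-treatment extract that differed between inducers would enter the early and the late differences alike, and its part was not tested.

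Clone by clone, few of these early differences could be called. In the limma test over 1 to 12 h, which had 4 residual degrees of freedom, 1 member was higher with TSA than with HMBA at an adjusted p below 0.05, and it was the only clone called (0.00686% of all clones). For TSA minus DMSO 0 members and 0 clones were called (0%). At an unadjusted p below 0.05 in either direction there were 43 of 100 members and 2177 of 14582 clones for TSA minus HMBA. For TSA minus DMSO there were 47 of 100 members and 2038 of 14582 clones. The median over the members was 0.39 for TSA minus HMBA, with 86 of 100 above 0 (52.2% of all clones), and 0.40 for TSA minus DMSO, with 93 of 100 above 0 (47.2%). Over all clones tested, the 95% interval of a difference reached 0.35 to either side in the median. The median SE of a member's difference was 0.20, and the members' intervals were wider in the median than those of all clones.

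**Figure D4:**
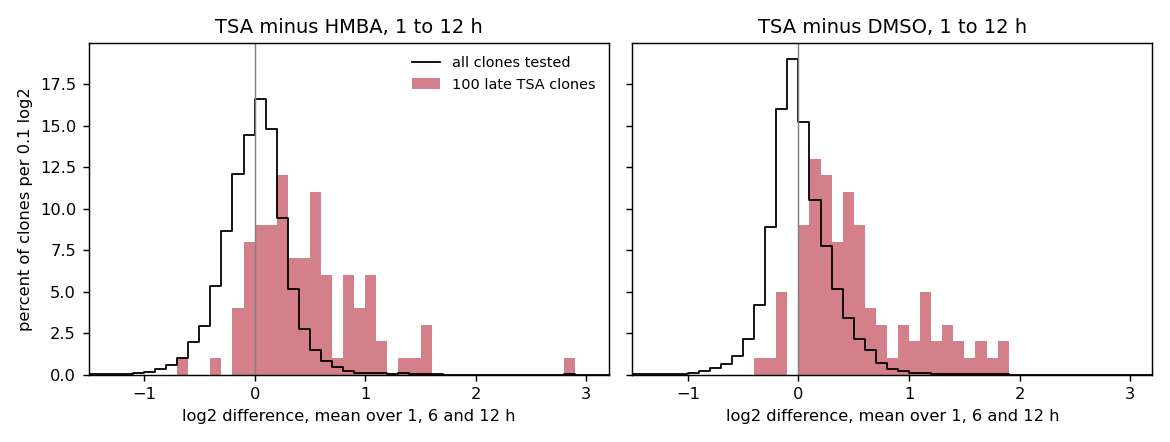
Share of clones in percent per 0.1 log2 units of the difference TSA minus HMBA and TSA minus DMSO, as means over 1, 6 and 12 h, for the 100 clones (filled) and all 14582 clones tested (line). The medians of the 100 clones are 0.39 and 0.40, those of all clones 0.01 and -0.01.

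With 6 and 12 h alone, and 2 residual degrees of freedom, more members passed. In that limma fit 10 members were higher with TSA than with HMBA (0.377% of all clones were), by 1.00 to 2.56, and 16 were higher with TSA than with DMSO (0.576%), by 0.95 to 2.48. None of the members was called lower in either. When the spread was estimated over all 15 conditions, 2 members among 8 clones were called for TSA minus DMSO over 1 to 12 h, and that spread includes the 24 and 36 h values that chose the members. With arrays scaled to the same spread, 2 members among 24 clones were called.

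H3057B07 was the member called for TSA minus HMBA, and it was also the member called higher with TSA against its before-treatment level over 1 to 12 h. Its TSA arrays at 1 h gave 1.48, 0.81, 1.05 and 0.64, against -0.61, -1.24 and -3.78 on the 3 HMBA arrays that listed it and -1.52, -1.71, -1.24 and -0.64 with DMSO. At 6 h the TSA arrays gave 0.87, 0.28, 0.80 and -0.30, against -2.07, -2.02, -3.09 and -2.32 with HMBA and -1.05, -1.09, -0.33 and -0.96 with DMSO. The TSA arrays were above all others at 1 h and above all HMBA arrays at 6 h, where the lowest TSA array and the highest DMSO array nearly met. At 12 h the means were 1.03 ± 0.53 with TSA, -1.30 ± 0.47 with HMBA and -0.98 ± 0.23 with DMSO (SD, n = 4 arrays each).

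Over 1 to 12 h, H3057B07 was higher with TSA than with HMBA by 2.82 (SE 0.25, 95% interval 2.26 to 3.39, limma adjusted p = 0.0406). TSA minus DMSO was 1.85 (SE 0.25, limma adjusted p = 0.13), which did not pass. Against the before-treatment level it was higher with TSA by 0.81 (adjusted p = 0.0224), lower with HMBA at -2.01 (adjusted p = 0.00186) and lower with DMSO at -1.04 (adjusted p = 0.0268). The call for TSA minus HMBA was lost in 9 of 14 alternatives, among them those without replicate 2 (2.76, adjusted p = 0.12), without replicate 3 (2.72, adjusted p = 0.0566), without the HMBA 1 h condition (2.67, adjusted p = 0.0601) and with the sign of HMBA 1 h replicate 4 turned (1.56, adjusted p = 0.293). With the sign of HMBA 1 h replicate 3 turned the difference was 2.82 (limma adjusted p = 0.0627), and the call was lost too. With replicate 4 left out the clone had too few values to be tested. Its HMBA spots after treatment were dim, at 32 to 342 at 6 h against 744 to 979 before treatment. Late after TSA it stood at 1.86 and 1.54 at 24 and 36 h, against -0.62 and -0.58 with HMBA and -0.50 and -0.29 with DMSO.

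The members came from 75 of the 238 plates with tested clones, 60 of which held a single member, and from 93 of 1893 plate rows. Of the plates 15 held 2 members or more, as did 5 plate rows, and 6 members lay next to another member in their row. A single plate held 6 members, and 4 of these, H3118A03 among them, filled adjacent wells of 1 plate row. Plates whose names begin with H3 held 80 members (65.3% of tested clones were on them), and slide 1 of the TSA arrays held 65 members (48.8% of tested clones).

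Along that plate row the 4 members in wells 3 to 6 had TSA values of 2.77, 1.79, 1.75 and 1.67 at 24 h and 3.44, 3.04, 3.81 and 2.72 at 36 h. The other 8 wells of the row ranged from -1.05 to 0.72 at 24 h and from 0.25 to 1.26 at 36 h, with a median of 0.62 at 36 h, so they were all above 0 at 36 h. The wells next to the members, 2 and 7, had 1.15 and 0.69 at 36 h. With HMBA the 4 members lay between -0.36 and 0.13 at 36 h, and with DMSO between -0.42 and -0.02. Whether these clones share a transcript is not known from the files, and the part of their position in these values was not tested. When the median of each plate row was removed from every array, the member medians with TSA at 24 and 36 h were 0.91 and 0.98, and the same rule then shared 80 of its 100 clones with the group.

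**Figure D5:**
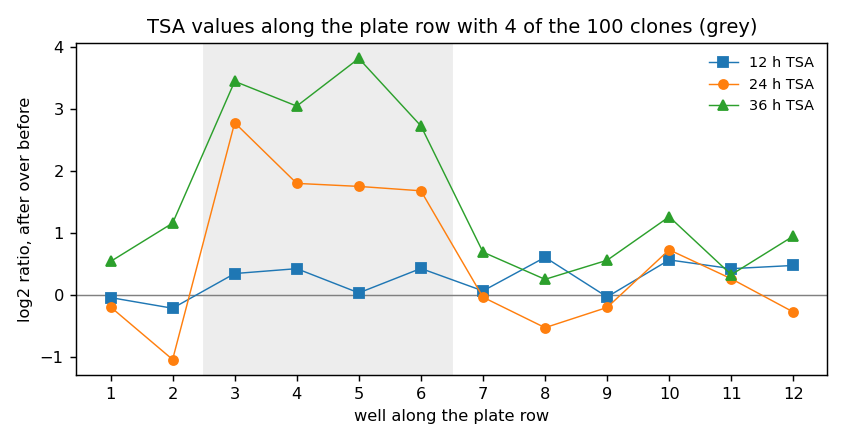
TSA log2 ratio (after over before treatment) at 12, 24 and 36 h for the 12 wells of the plate row that holds 4 of the 100 clones (grey). Wells 3 to 6 stand at 2.72 to 3.81 at 36 h, and the other 8 wells at 0.25 to 1.26.

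The median before-treatment intensity of the members was below that of all clones tested on all 8 late TSA arrays, while at 36 h it was above on 3 of 4 HMBA arrays and below on 3 of 4 DMSO arrays. These intensities enter the ratios that chose the members, so they are a description. On the 36 h TSA arrays their median intensity after treatment was 1115 to 2235, against 835 to 1094 before treatment, where all clones tested had 915 to 1164. On the 24 h TSA arrays it was 1243 to 1522 after treatment, against 507 to 957 before treatment, where all clones tested had 624 to 985. On the 36 h arrays of HMBA the members had 422 to 980 after and 547 to 1121 before treatment, where all clones had 508 to 1035 before. On those of DMSO the members had 603 to 801 after and 845 to 1312 before treatment, where all clones had 893 to 1404 before. Single members ranged widely, from 26.7 to 31540 before treatment on the TSA arrays at 36 h.

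The late TSA values by dye orientation are a description, because the choice of members used the arrays of both. At 24 h the member median was 1.10 with the after-treatment RNA in Cy5 and 1.06 with it in Cy3, and at 36 h it was 1.07 in both. The value was above 0 in both orientations in 88 members at 24 h (26.7% of all clones) and 94 at 36 h (27.7%). The median SD over the 4 arrays of a member was 0.34 at 24 h and 0.27 at 36 h with TSA, against 0.36 and 0.32 over all clones tested.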

How the data were processed

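Two-colour cDNA arrays compared RNA after and before treatment in 15 conditions with 4 technical arrays each. The authors deposited spot intensities on a linear scale, before and after treatment per the file headers, and a table of 1 linear ratio per clone and array, after over before treatment. Scanning, background correction and the centring of the deposited ratio are not given in the sources used here. The dyes are per the labels.

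The 100 clones were ranked on log2 of the deposited ratios. All other values were computed from the intensities with limma 3.58.1 in R 4.3.3: normexp with an offset of 50, loess with a span of 0.3 within each slide, and the mean of both dye orientations. The normalized and deposited log2 ratios correlated at r between 0.899 and 0.996 per array, so both run after over before treatment as the headers name the columns. Neither shows which of the opposing HMBA 1 h arrays is labelled correctly. Clones on at least 3 of 4 arrays of every condition were kept, since the files hold no background measure for the planned filter.

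The technical arrays of a condition measure 1 RNA pair and were counted as 1 value. The early limma fit used the 9 conditions at 1, 6 and 12 h, with chemical and time as factors and 4 residual degrees of freedom. A second fit over 15 conditions had 6. Benjamini-Hochberg adjustment ran over all 14582 clones, and called means an adjusted p below 0.05. A p-value here reflects how far condition values scatter around the model, not the scatter of repeated cultures, and tests against the before-treatment level do not include variation of that RNA. The number of arrays and conditions limits the precision. The fit and the ranking were run on simulated data to check the code. The late rises planted for the ranking were much larger against their noise than those measured, so that run does not show how stable the membership is.

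Members, gene lists and tests were chosen with earlier results of these data known. The rule for named clones was the 2 members with the highest score where no table names clones. None of the 16 gene lists, marker lists and promoter motifs could be used, because 0 clone identifiers matched the gene table. Alternatives changed the background correction, scaling, filter, plate-row medians, dye orientation, replicates, conditions and the direction of the HMBA 1 h arrays. The last was chosen after seeing the data.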

Additional observations from a re-analysis of the deposited data

Results flagged for a closer look

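Each group of 4 arrays of the named clones and of the member medians was checked for 1 array far from the other 3, which chance gives in about 1 of 20 groups. Of 72 groups checked, 6 had such an array. The member median on 1 DMSO array at 36 h was -0.72, against -0.66 to -0.65 on the others, a gap that is small in size. H3114F12 was at 0.72 on 1 TSA array at 1 h, against -0.25 to -0.10, and at 1.68 on 1 HMBA array at 1 h, against -0.19 to 0.12. H3118A03 was at -0.47 on 1 HMBA array at 36 h, against 0.21 to 0.29. H3057B07 was at 0.047 on 1 HMBA array at 36 h, against -0.84 to -0.73, and at -0.33 on 1 DMSO array at 6 h, against -1.09 to -0.96.

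H3057B07 also differed between inducers at the early times. TSA minus HMBA was 2.82 over 1 to 12 h, with a limma adjusted p of 0.0406 over 14582 clones, and it was above 0 at 3 of 3 times. It was lost as a call in 9 of 14 alternatives.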

How the results depend on the processing

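No paired analysis was possible because the replicate numbers mark technical arrays of 1 RNA pair, which were averaged to 1 value per condition. Shares in brackets are those of all clones tested that were called in either direction. Members called for TSA minus HMBA (1, 0.00686%) became 0 with no background correction, arrays scaled to the same spread, clones listed on all 4 arrays, either dye orientation alone, no HMBA 1 h condition, or the sign of HMBA 1 h replicate 3 or 4 turned (0% to 0.00686%). They became 10 with 6 and 12 h only (0.816%), and were 0 to 1 with a replicate left out (0% to 0.00781%). For TSA minus DMSO (0, 0%) they were 2 with scaled arrays (0.165%), 2 with the spread over 15 conditions (0.0549%) and 16 with 6 and 12 h (0.885%). For TSA against before treatment (14, 12.9%) they were 6 with Cy5 arrays only (5.52%) and 24 with 6 and 12 h (16.1%). With a replicate left out they ran from 5 without replicate 3 (3.01%) to 13 without replicate 1 (9.98%). For DMSO (36, 2.43%) they were 12 with Cy3 arrays only (1.27%), 49 with 6 and 12 h (4.27%) and 51 with scaled arrays (9.51%). With a replicate left out they ran from 1 without replicate 3 (0.0158%) to 29 without replicate 1 (2.23%). For HMBA (48, 14.7%) they were 19 with scaled arrays (3.58%), 29 with HMBA 1 h replicate 3 turned (8.71%) and 59 with 6 and 12 h (18%). With a replicate left out they ran from 25 without replicate 3 (7.52%) to 46 without replicate 1 (12%). Leaving out a replicate also left 78 to 88 members to test. In the late contrast, 688 clones were called, 315 higher and 373 lower. The majority turned to higher with no background correction (494, 307 of them higher), Cy5 arrays only (179, 123 higher), without replicate 2 (397, 200 higher) and without replicate 3 (173, 107 higher), and the count ran from 173 to 1272 with a replicate left out; the cause was not tested.

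The rule applied to values normalized from the intensities gave 94 of the 100 clones. It gave 57 with clones on all 4 arrays, where 59 members could enter, 56 with Cy3 arrays only, 71 to 77 with a replicate left out, and 50 when only 50 were taken. The member median with TSA stayed between 0.91 and 1.10 at 24 h and between 0.87 and 1.16 at 36 h in the 11 alternatives run. At 12 h it ran from -0.05 to 0.15. The H3057B07 difference ran from 1.56 to 3.48 and was above 0 in all 14 alternatives. The estimate over 1 to 12 h rests on 1 culture per condition, and dim spots limit the low values.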
